A study of Mus musculus with 9 samples.

Results

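The solute carrier genes expressed in mouse metaphase II (MII) oocytes were described across 3 groups of eggs. Members were chosen by their level alone: protein-coding genes whose symbol starts with Slc and a number, selected on a mean of 1 CPM or more over all 9 libraries. Of 30153 genes in the joined tables, 358 had such a symbol, 182 of these were members and the other 176 lay under 1 CPM. CPM is the number of reads of a gene per 1000000 reads counted in the library. Because the level chose the members, their levels are given as a description, and only the comparisons between groups were tested. The choice was not independent of these comparisons. It was made with earlier results of these data known, and the mean covers the compared libraries. A gene near 1 CPM can pass through the group where it is high. Of the members, 4 (Slc4a1ap, Slc7a6os, Slc9a3r1 and Slc9a3r2) carry the symbol only as partners or neighbours of a carrier, which leaves 178 carriers.

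The eggs came from Sycp3CreERT2/+; Rosa26nT-nG/+ females, 4 weeks old and of mixed background. Sycp3CreERT2 is a Cre recombinase that tamoxifen switches on and that is made under the control of Sycp3, a gene of meiotic cells. The Rosa26nT-nG allele reports its action, with tdTomato in the nucleus before recombination and GFP there afterwards. Females received 5 IU PMSG and, 48 h later, 5 IU hCG, and the eggs were taken 13 h after hCG and freed of cumulus cells with hyaluronidase. Eggs were sorted by hand on fluorescence into GFP High (pools of 15 to 16 eggs), GFP Low (49 to 57) and RFP (87 to 100), with 3 libraries per group. All 3 groups therefore share both alleles and the hormone treatment, and differ in reporter signal and in pool size. Tamoxifen timing is not used here, and nothing in the labels says whether pools came from separate animals, so p-values measure the spread between these pools. Library totals ranged from 19381677 to 27746256 counts, and a gene at 1 CPM rests on about 19.4 reads in the smallest library. These limits cover counting error only, since the reads carry no molecular identifiers.

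Solute carriers are membrane proteins that move ions, metals, nutrients and metabolites across the plasma membrane and the membranes of organelles, mostly as exchangers, cotransporters or uniporters. A mouse egg relies on them for several well known tasks: glycine and other amino acids are taken up as osmolytes and nutrients, pyruvate enters as the main fuel, sodium-hydrogen and bicarbonate exchangers hold the cytosolic pH, and zinc accumulates during maturation and is released at fertilisation. In zinc transport the Slc39 (ZIP) family moves zinc into the cytosol and the Slc30 (ZnT) family moves it out of the cytosol, into vesicles or out of the cell.

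Promoters of 4 members are shown because their genes stand at the head of the levels described next (Slc45a3, Slc30a3) or hold the most matches to the metal-response motif among zinc carriers of 20 CPM or more (Slc30a1, Slc30a4). Each is the RefSeq window on build GRCm38.p6 from 250 bases before to 50 bases after an annotated start, printed 5′ to 3′ on the strand of the gene. Capitals mark matches to TGCACNC or TGCGCNC, the core of the element bound by the metal-sensing factor Mtf1, on either strand. The windows are chr1:131962665-131962964 (plus strand) for Slc45a3, chr5:31108195-31108494 (minus) for Slc30a3, chr1:191906531-191906830 (plus) for Slc30a1 and chr2:122702614-122702913 (minus) for Slc30a4.
Slc45a3: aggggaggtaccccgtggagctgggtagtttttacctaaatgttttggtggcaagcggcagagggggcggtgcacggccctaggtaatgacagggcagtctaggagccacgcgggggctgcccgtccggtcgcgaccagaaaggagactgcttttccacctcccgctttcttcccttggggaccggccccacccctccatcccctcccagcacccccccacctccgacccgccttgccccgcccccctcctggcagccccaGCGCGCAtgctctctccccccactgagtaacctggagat
Slc30a3: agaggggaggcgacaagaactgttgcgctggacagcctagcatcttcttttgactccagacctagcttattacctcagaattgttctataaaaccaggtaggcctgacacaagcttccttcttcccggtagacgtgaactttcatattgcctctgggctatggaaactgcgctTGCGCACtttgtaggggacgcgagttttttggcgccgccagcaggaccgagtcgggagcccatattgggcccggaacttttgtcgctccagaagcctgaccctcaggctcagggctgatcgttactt
Slc30a1: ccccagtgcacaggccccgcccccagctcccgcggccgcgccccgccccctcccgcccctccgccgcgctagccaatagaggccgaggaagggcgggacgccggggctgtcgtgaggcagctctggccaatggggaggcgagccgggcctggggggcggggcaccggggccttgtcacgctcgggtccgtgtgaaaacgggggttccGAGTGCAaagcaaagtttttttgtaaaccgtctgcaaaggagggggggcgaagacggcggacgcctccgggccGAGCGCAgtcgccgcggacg
Slc30a4: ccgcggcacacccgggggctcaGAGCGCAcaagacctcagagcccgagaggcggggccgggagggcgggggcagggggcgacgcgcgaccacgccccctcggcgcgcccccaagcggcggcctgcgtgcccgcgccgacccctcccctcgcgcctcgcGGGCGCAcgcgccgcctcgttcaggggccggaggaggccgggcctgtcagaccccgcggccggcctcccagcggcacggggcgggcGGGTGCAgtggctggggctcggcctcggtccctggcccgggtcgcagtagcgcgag
The Slc45a3 and Slc30a3 windows hold 1 match each, the Slc30a1 window 2 and the Slc30a4 window 3. Of the 182 members, 147 had a promoter in the table, with 190 windows in all, and overlapping matches were counted separately. A match was present in 25.7% of all 32851 windows of this length, in 34.7% of the members' windows, in 9 of 17 windows of zinc carriers (52.9%) and in 22.9% of those of mitochondrial carriers. The members' windows also had more G and C, with a median of 60.7% against 52.7% over all windows, and the part of this in the motif shares was not tested. TATAAA, read on both strands, was present in 7.37% of the members' windows and 13.6% of all windows. Slc39a10, one of the 3 highest zinc carriers, had no match in its 2 windows, and Slc39a6 and Slc39a14 were not in the table. A match is a description of letters and not a binding site.

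Solute carriers took about the same share of the eggs' poly-A RNA in every group. The share of all counts in the 182 members was 0.593% ± 0.0059 (SD, n = 3) for GFP High, 0.595% ± 0.0086 for GFP Low and 0.606% ± 0.014 for RFP, with single libraries between 0.588% and 0.621%. The groups overlapped. Within the members, 95 reached 10 CPM and 15 reached 100 CPM.

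A minority of the genes made up most of this RNA. FPKM, the authors' measure of fragments per kilobase of gene and 1000000 fragments, adjusts for gene length and is used wherever levels of different genes are set side by side. Of the summed FPKM of the members, the highest gene held 7.11%, the top 6 held 33.2%, the top 20 held 60.7% and the top 50 held 81.3%. The top 6 by mean FPKM over 9 libraries were Slc45a3 (91.2), Slc39a6 (73.5), Slc30a3 (71.1), Slc9b1 (65.8), the partner gene Slc4a1ap (64.7) and Slc39a10 (59.1). Of these 6, 3 are zinc carriers. Slc45a3 stood at rank 552 and Slc39a6 at rank 714 among all genes by mean FPKM.

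**Figure D1:**
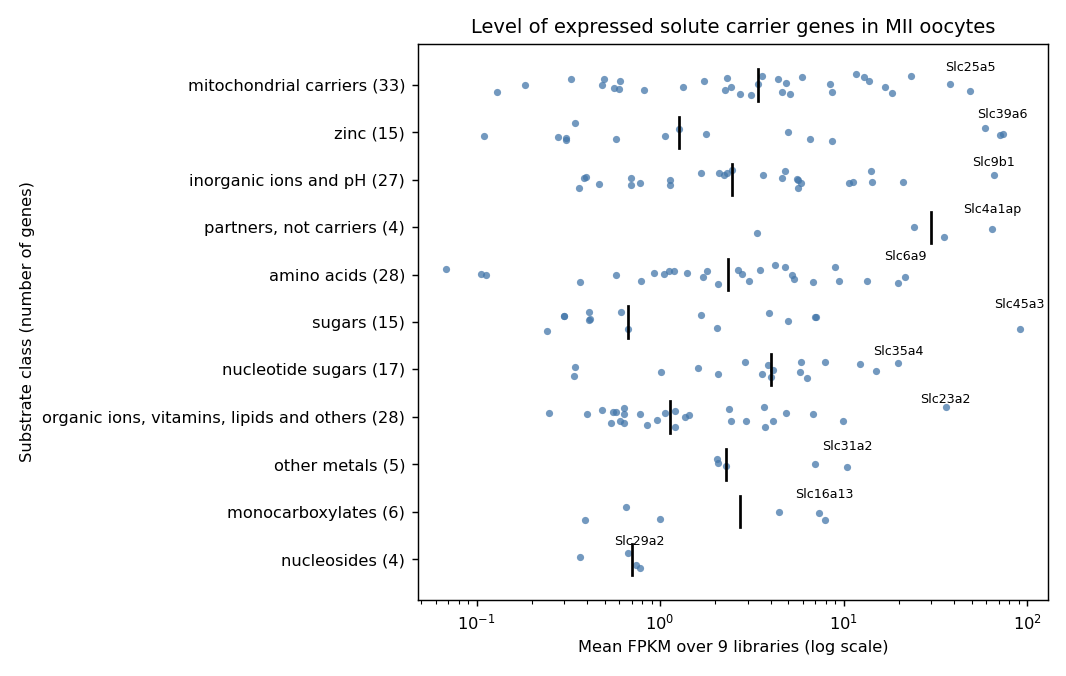
Mean FPKM over 9 libraries (log scale) of the 182 members, 1 point per gene, by substrate class with the number of genes in brackets; black bars are class medians and the highest gene of each class is named. Slc45a3 is the highest point at 91.2 FPKM, and the nucleoside class stays below 1 FPKM.

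Among the 10 classes of carriers, the share of listed genes that were members was highest for mitochondrial and lowest for monocarboxylate carriers. Members made up 33 of 44 listed genes (75%) of the mitochondrial class, 17 of 26 (65.4%) of the nucleotide-sugar class and 15 of 23 (65.2%) of the zinc class. In the amino acid class it was 28 of 66 (42.4%), and in the monocarboxylate class 6 of 18 (33.3%). All 5 listed choline-transporter-like genes of the Slc44 family were members, as were both phosphate carriers of the Slc20 family and both copper carriers of the Slc31 family. Of 49 listed families, 41 had a member; Slc8 (sodium-calcium exchangers), Slc13, Slc32, Slc34, Slc40 (the iron exporter), Slc46, Slc50 and Slc51 had none.

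Zinc carriers held 17.9% of the members' FPKM, most of it in 3 genes. Slc39a6 (ZIP6, chr18:24579881-24603817 on GRCm38) and Slc39a10 (ZIP10, chr1:46807544-46892852) are the importers known for zinc uptake by maturing oocytes. Slc39a6 had 312, 299.6 and 336 CPM in the RFP pools, 307, 295 and 289.8 in the GFP Low pools and 286, 295 and 302 in the GFP High pools. Slc39a10 had 406, 369 and 358 CPM in the RFP pools, 406, 348 and 337 in the GFP Low pools and 342, 355 and 355 in the GFP High pools. For Slc39a6 the groups overlapped. For Slc39a10 the GFP High values lay just under those of RFP on this scale, and overlapped them once libraries were scaled by edgeR's TMM factors.
Slc30a3 (ZnT3, chr5:31086106-31108237), which loads zinc into vesicles, had 199.8, 184 and 209 CPM in the RFP pools, 189, 189 and 238 in the GFP Low pools and 209, 206 and 209 in the GFP High pools. The 3 GFP High libraries were almost alike, and GFP Low library 3 was the highest of the 9. The groups overlapped on this scale, while TMM scaling put GFP High just above RFP. On the FPKM scale the ranges over 9 libraries of Slc39a6 (69.6 to 80.6) and Slc30a3 (63.9 to 82.8) overlapped, so their order is within the spread.
A wide step separated these 3 from the rest of the class. Next came Slc30a5 (8.62 FPKM) and Slc30a4 (6.53), which move zinc into secretory compartments, and Slc30a1 (4.99), the exporter of the plasma membrane. The remaining 9 zinc members lay between 0.110 FPKM (Slc39a14) and 1.78 FPKM (Slc39a9).
Summed over each family, the 8 Slc39 members gave 134.4 ± 4.1 FPKM (SD, n = 3) for GFP High, 135.5 ± 8.5 for GFP Low and 140.4 ± 4.7 for RFP. The 7 Slc30 members gave 95.7 ± 2.2, 92.3 ± 7.8 and 91.5 ± 2.8 FPKM in the same order. The ratio of Slc39 to Slc30 RNA was 1.41 ± 0.072 for GFP High, 1.48 ± 0.18 for GFP Low and 1.54 ± 0.048 for RFP. Most of the Slc30 sum was Slc30a3, which loads vesicles, so the ratio does not measure export from the cell. The GFP Low libraries, from 1.28 to 1.61, covered the values of both other groups. The GFP High libraries (1.33 to 1.47) and the RFP libraries (1.501 to 1.59) did not overlap. Between GFP High and RFP, 11.8% of all genes tested did not overlap, so this ratio alone shows no group difference. No p-value was computed for these sums, since the genes were chosen with results of these data known.

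**Figure D2:**
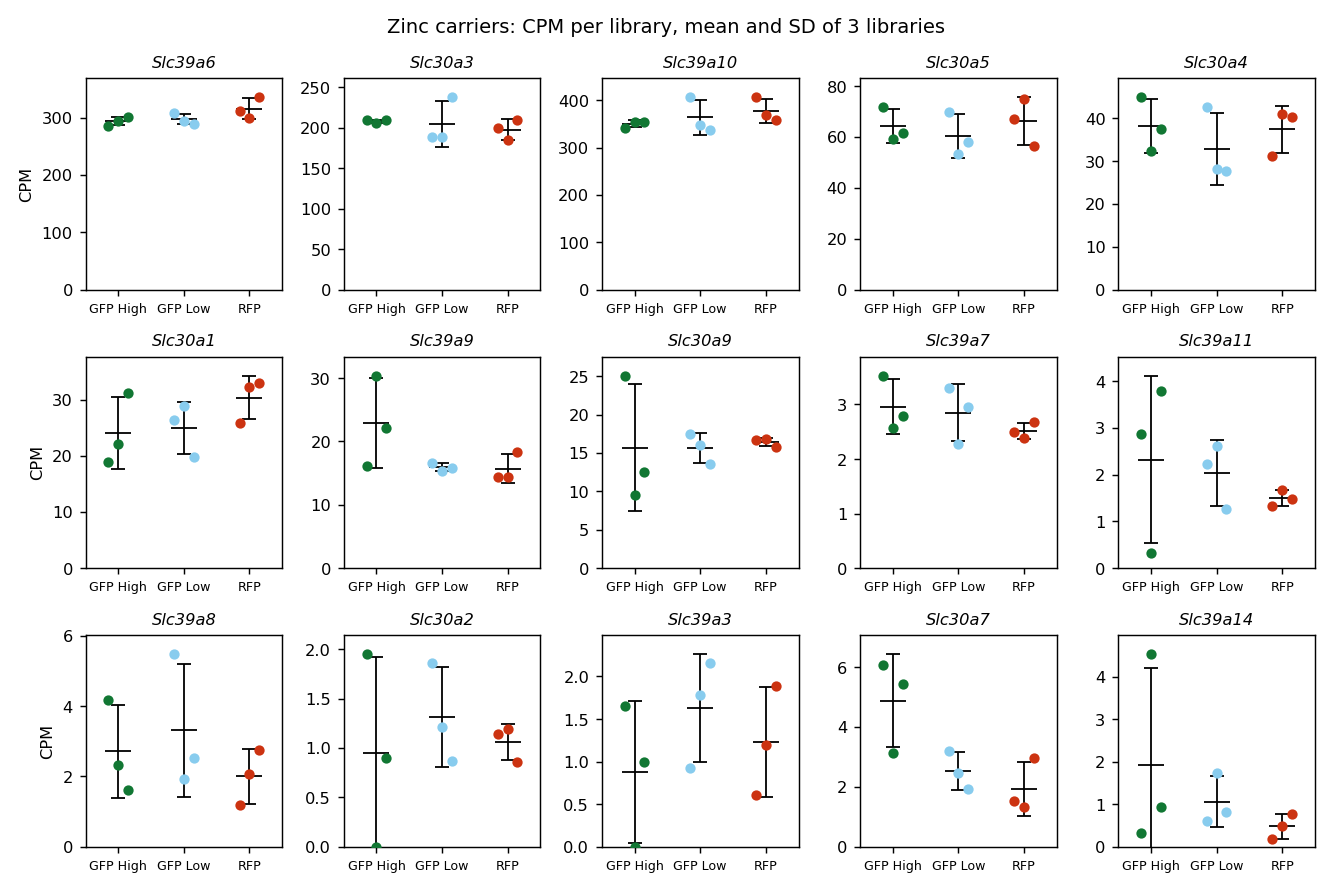
CPM per library (points) of the 15 zinc carriers in GFP High, GFP Low and RFP, with the mean and SD of 3 libraries (lines, not drawn below 0). Slc39a6, Slc30a3 and Slc39a10 lie between 184 and 406 CPM in all 9 libraries with small spread. Slc39a14, the lowest by FPKM, runs from 0.330 to 4.53 CPM in GFP High.

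Mitochondrial carriers were the largest class by FPKM (19.7% of the members' sum). Slc25a5, which exchanges ADP for ATP across the inner membrane, led with 48.9 FPKM, ahead of Slc25a48, linked to mitochondrial choline import (38.1), and the ornithine carrier Slc25a15 (23.2). The other ADP/ATP carriers were Slc25a4 (18.3 FPKM) and Slc25a31 (12.98), the isoform known from germ cells. Slc25a3, the phosphate carrier that supplies ATP synthesis, had 3.57 FPKM. The class also holds Slc25a17 (13.7), which sits in peroxisomes.
Slc25a48 had 137, 102 and 154 CPM in the RFP pools, 119.8, 122 and 135 in the GFP Low pools and 118, 151 and 129 in the GFP High pools. RFP library 2 was the lowest of the 9, and the groups overlapped. Summed over the 3 ADP/ATP carriers, the libraries gave 70.8, 82.4 and 77.2 FPKM for RFP, 72.7, 68.9 and 73.96 for GFP Low and 87.7, 106.4 and 81.05 for GFP High. GFP High library 2 stood highest, GFP High and GFP Low did not overlap, and GFP High and RFP did. Between GFP High and GFP Low, 11.5% of all genes tested did not overlap.

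Carriers of inorganic ions and pH held 14.8% of the members' FPKM. Slc9b1, a sodium-hydrogen exchanger family gene best known from sperm, had 65.8 FPKM, with 263, 253 and 215 CPM in the RFP pools, 249, 283 and 242 in the GFP Low pools and 216, 237 and 249 in the GFP High pools. Its groups overlapped. Slc12a8, of the cation-chloride cotransporter family, had 14.3 FPKM and the sodium-hydrogen exchanger Slc9a3 had 14.2. The sodium-driven bicarbonate exchanger Slc4a8 reached 11.3 FPKM and the anion exchanger Slc4a2 2.23. Slc12a2, the sodium-potassium-chloride cotransporter, had 10.7.

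Amino acid carriers were spread over 28 genes, which held 9.73% of the members' FPKM. Slc6a9, the glycine transporter that egg volume regulation depends on, was the highest at 21.6 FPKM, with 112, 112 and 116 CPM in the RFP pools, 116, 114 and 126 in the GFP Low pools and 122, 85.9 and 107 in the GFP High pools. GFP High library 2 was lowest, and the groups overlapped. In the annotation 30.2% of the exon bases of Slc6a9 overlap genes on the opposite strand. Because the strand setting of the counting is not given in the sources used here, reads of the 2 strands cannot be told apart.
Slc3a2, the shared heavy chain of several Slc7 exchangers, had 19.7 FPKM. Of its light chains, the cystine-glutamate exchanger Slc7a11 had 13.4 and the large neutral amino acid exchanger Slc7a5 had 5.40, whereas Slc7a8 had 1.12 and Slc7a6 had 0.365. The proline transporter Slc6a7 had 9.01 FPKM and the taurine transporter Slc6a6 4.80. Slc38a2, a system A neutral amino acid carrier, had only 0.113 FPKM at 1.01 CPM. Its reads lay mostly in RFP 2 (3.27 CPM), GFP Low 1 (2.94) and RFP 1 (1.89). These libraries also held more cumulus RNA, described below, as did GFP High 1, where Slc38a2 had 0.477 CPM. The part of cumulus RNA in its level was not tested. The glutamine carriers Slc1a5 and Slc38a3 were under 1 CPM, at 0.026 and 0.012.

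Among sugar carriers, most of the RNA was Slc45a3. Slc45a3 (chr1:131962967-131982969), a proposed sucrose or sugar carrier best known from prostate, had 322, 328 and 353 CPM in the RFP pools, 314, 304 and 307 in the GFP Low pools and 323, 347 and 357 in the GFP High pools. The GFP Low libraries lay at the bottom of this range and did not overlap the others. Slc2a1, the widespread glucose transporter, had 7.11 FPKM and Slc45a4 had 6.96. Slc2a3, the other textbook glucose transporter of early embryos, was under the limit at 0.148 CPM. The class was set by family number, so it includes Slc5 genes that carry other solutes, such as the sodium-lactate carrier Slc5a12 (3.91 FPKM).
Of the monocarboxylate carriers, Slc16a13 had 7.91 FPKM, the pyruvate and lactate carrier Slc16a1 (MCT1) 7.36, and the aromatic amino acid carrier Slc16a10 4.46. Slc16a3 and Slc16a7, the other well known lactate and pyruvate carriers, were under the limit at 0.670 and 0.842 CPM. Slc16a1 was thus the highest of these 3 by FPKM.

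The remaining classes were led by single genes. Slc23a2, a sodium-ascorbate cotransporter, had 36.1 FPKM, with 319, 284 and 265 CPM in the RFP pools, 305, 294 and 277 in the GFP Low pools and 292, 283 and 291 in the GFP High pools, and its groups overlapped. It was followed in its class by Slc44a2 (9.93) and Slc23a3 (6.83). Of the nucleotide-sugar family, Slc35a4 had 19.8 FPKM, the sulfate-donor carrier Slc35b3 15.00 and Slc35f3 12.3. For other metals, Slc31a2, a copper carrier, had 10.4 FPKM, Slc41a2, of the magnesium carrier family, 7.03, and the iron importer Slc11a2 2.29. Nucleoside carriers were low throughout: Slc29a2 had 0.773 FPKM, Slc29a3 0.737 and Slc28a3 0.665. The partner genes Slc4a1ap (64.7), Slc7a6os (35.4) and Slc9a3r1 (24.3), the last an adaptor of the exchanger Slc9a3, held most of the 9.97% of FPKM in their class.
At the edge of the choice, the members just inside were Slc27a6 (1.01 CPM), Slc38a2 (1.01), Slc25a53 (1.04), Slc43a2 (1.07) and Slc28a1 (1.09). Just outside were Slc46a3 (0.982), Slc35f5 (0.971), Slc7a9 (0.960), Slc26a8 (0.891) and Slc34a2 (0.879).

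Below 100 CPM the members' spread between libraries was widest in GFP High, the group with the smallest pools. Over members of 1 to 5 CPM, the median coefficient of variation (SD over mean) was 68.2% for GFP High, 30.1% for GFP Low and 24.8% for RFP. Other protein-coding genes of that level had 68.1%, 31.9% and 27.2%. At 100 CPM or more it was 6.22%, 5.03% and 7.96% for the 15 members there. Other protein-coding genes of that level had 9.38%, 5.485% and 7.15%, so for them GFP High was still the widest. Read counts of 0 were found for 4, 9 and 2 members in the GFP High libraries, for none in GFP Low, and for 1 member in 1 RFP library. The part of pool size in this was not tested.
Of members at 10 CPM or more, the widest in GFP High was Slc12a8, with 26.6, 109.9 and 54.7 CPM there, 64.03, 80.5 and 64.9 in the GFP Low pools and 78.8, 31.4 and 67.1 in the RFP pools. Its coefficient of variation was 66.4% in GFP High and 41.8% in RFP. The magnesium carrier Slc41a1 followed, at 9.14, 1.96 and 10.3 CPM in GFP High (63.2%) and 33.8% variation in GFP Low. Slc43a3 had 5.65, 7.46 and 16.6 CPM in GFP High (59.3%). The low value of Slc41a1 came from GFP High library 2, and those of Slc43a3 from libraries 1 and 2. In GFP Low, Slc23a3 (31.2%) and Slc25a39 (30.8%) were next, and in RFP Slc23a3 (39.6%) and the exchanger Slc7a5 (26.3%).

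Oocyte markers were high in every library, and traces of cumulus RNA differed between libraries. The 10 oocyte marker genes were present in all libraries, with a summed level of 8329 to 9389 CPM. Of 22 cumulus and granulosa genes, Serpine2, Nr5a2 and Cyp19a1 had 6.78 CPM or more in every library, Star had reads in all 9 at up to 1.93 CPM, and Amh, Amhr2, Ereg and Pgr had reads in 1 library each. A set of 6 genes of that list, chosen after their values were seen (Tnfaip6, Ptx3, Inha, Ptgs2, Inhba and Vcan), summed to 12.8, 57.9 and 1.08 CPM in the RFP pools, 39.99, 2.02 and 6.92 in the GFP Low pools and 37.4, 0.361 and 1.31 in the GFP High pools. In each group 1 library was far above the others, and fewer cumulus cells cannot be told apart from less RNA per cell. The whole list of 22 summed to 281 to 412 CPM for GFP High, 313 to 330.1 for GFP Low and 298 to 399 for RFP. On this list GFP Low 1 (330.1) lay under GFP High 3 (342.6). Without Serpine2, Nr5a2 and Cyp19a1 the list was highest in RFP 2 (70.3), GFP Low 1 (48.1) and GFP High 1 (45.6), followed by RFP 1 (24.25). Single genes of the list differed, with Star and Cyp11a1 highest in RFP 1. Matched stroma (3), blood (1) and oviduct (1) markers summed to at most 3.75 CPM.
Slc7a8, a light chain that exchanges small neutral amino acids, had 4.58, 11.7 and 0.705 CPM in the RFP pools, 13.9, 0.570 and 3.50 in the GFP Low pools and 15.3, 0 and 0.720 in the GFP High pools. Its 3 highest libraries were the 3 with the highest sums of the 6 cumulus genes. There were 4 members (Slc7a8 and the zinc carriers Slc30a4, Slc30a5 and Slc30a9) that were higher in these 3 libraries than in the other 6, or 2.20% of members against 1.93% of 11102 protein-coding genes of 1 CPM or more. A further 5 members (Slc25a48, Slc9a3, Slc2a1, Slc35f2 and Slc25a53) were lower in them, 2.75% against 1.24%. The part of cumulus RNA in these values was not tested.

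**Figure D3:**
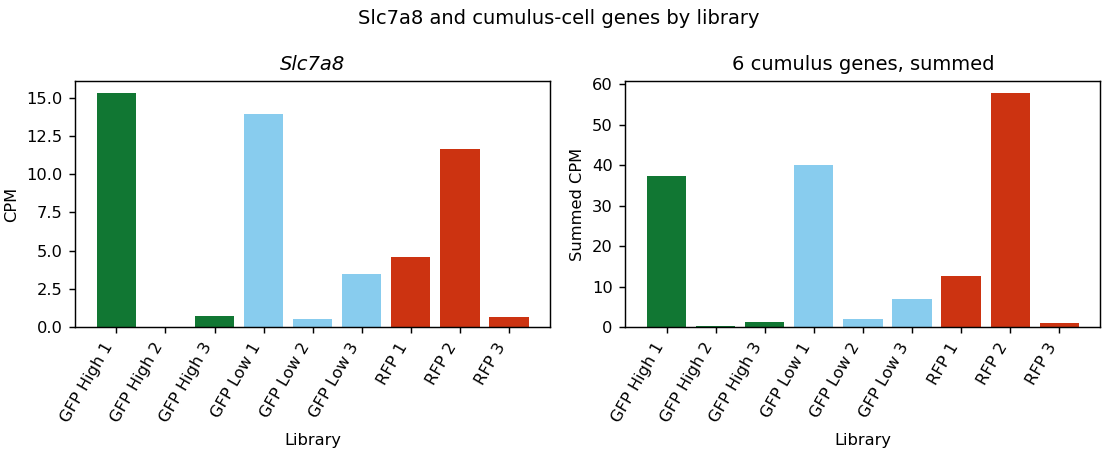
CPM of Slc7a8 (left) and summed CPM of the 6 cumulus genes (right) in each of the 9 libraries, colored by group. Both are high in GFP High 1 (15.3 and 37.4), GFP Low 1 (13.9 and 39.99) and RFP 2 (11.7 and 57.9).

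No solute carrier differed between GFP High and RFP past the threshold. All 182 members were tested among 14829 genes with edgeR's quasi-likelihood test (Benjamini-Hochberg adjusted p under 0.05), and 0 were called, beside 0.0135% of all genes tested. DESeq2 called 0 members beside 0.0694% of its genes, and limma-voom 0 beside 0.00674%. At an unadjusted p under 0.05, edgeR gave 7 members, 4 higher and 3 lower in GFP High (3.85%), against 4.09% of all genes. The 3 libraries of each group did not overlap for 22 members, 9 higher and 13 lower (12.1%), against 11.8% of all genes. Both shares are near the background. The 9 higher include Slc16a9 (mean 1.52 CPM, log2 fold change 1.62), which can have passed the 1 CPM limit through its GFP High values. The median log2 fold change was -0.016 over members and -0.0056 over all genes. With 1 library left out, the members' median ran from -0.059 (without GFP High 3) to 0.027 (without RFP 3), and it was also positive, at 0.014, without GFP High 2. In the authors' deposited table, 0 members had an adjusted p under 0.05 and 13 had a p under 0.05. The share over all genes of that table was not computed, so the 13 cannot be read as many or few.
The member with the smallest p was Slc5a12, with 23.6, 17.3 and 15.6 CPM in the RFP pools, 16.5, 18.6 and 19.7 in the GFP Low pools and 9.80, 8.62 and 14.9 in the GFP High pools. All GFP High values lay below the other 6. Its edgeR log2 fold change against RFP was -0.75 (SE 0.29, adjusted p 0.9969), and against GFP Low -0.71 (SE 0.27, adjusted p 0.9975).
Slc25a5 had 72.7, 81.5 and 71.7 CPM in the RFP pools, 70.3, 63.3 and 72.4 in the GFP Low pools and 90.1, 124 and 83.4 in the GFP High pools. All GFP High values lay above the other 6, with library 2 far above. Against RFP the difference was 0.42 on the log2 scale (SE 0.17, adjusted p 0.9969 by edgeR). Without GFP High library 2 it was 0.20. Slc25a5 has near-identical processed pseudogenes (Gm5560, 98.3% identity, and Gm5529, 96.8%), counted at 0.535 and 0.479 CPM, so reads could be split between them.
The heme carrier Slc48a1 had 5.43, 3.29 and 4.27 CPM in the GFP High pools and 9.74, 6.18 and 8.65 in the RFP pools, a log2 fold change of -0.91 (SE 0.37). Slc30a7, which brings zinc into the Golgi, had 6.06, 3.13 and 5.44 CPM with high GFP and 1.52, 1.32 and 2.97 in RFP, a log2 fold change of 1.34 (SE 0.55). The peroxisomal carrier Slc25a17 had 44.4, 48.6 and 44.4 CPM with high GFP and 35.3, 38.9 and 34.9 in RFP, at 0.35 (SE 0.14). The edgeR adjusted p of each was 0.9969, and none of the 3 overlapped between groups.

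Nor did a solute carrier pass the threshold in GFP Low against RFP. Of 182 members tested among 15199 genes, edgeR called 0 beside 0.0197% of all genes, DESeq2 0 beside 0.066% and limma-voom 0 beside 0.00658%. At an unadjusted p under 0.05 there was 1 member (0.549%, higher in GFP Low) against 2.62% of all genes. Libraries did not overlap for 12 members, 8 higher and 4 lower (6.59%), against 7.68%. The median log2 fold change was -0.031 over members and -0.0041 over all genes. The members' median turned to 0.0027 without RFP 3 and stayed negative, down to -0.034, without any other single library. In the authors' deposited table, 0 members had an adjusted p under 0.05 and 1 had a p under 0.05, with no share over all genes computed.
The creatine carrier Slc16a12 had 4.95, 4.79 and 7.57 CPM in the GFP Low pools, 3.11, 4.33 and 3.71 in the RFP pools and 1.51, 2.57 and 4.50 in the GFP High pools. GFP Low was above RFP in all libraries, by 0.65 on the log2 scale (SE 0.28, adjusted p 0.9999 by edgeR). This was 0.40 without GFP Low library 3.
Slc12a2 had 72.2, 74.2 and 63.4 CPM in the GFP Low pools and 88.5, 76.4 and 80.96 in the RFP pools, a log2 fold change of -0.22 (SE 0.11). Slc25a22, a mitochondrial glutamate carrier, had 2.63, 3.23 and 4.32 CPM with low GFP and 5.30, 4.28 and 5.94 in RFP, at -0.60 (SE 0.29). The choline carrier Slc44a1 had 33.7, 30.6 and 30.7 CPM with low GFP and 33.99, 41.6 and 38.4 in RFP, at -0.25 (SE 0.13). For Slc25a22 the groups overlapped, and for Slc12a2 and Slc44a1 they did not. Slc6a21, of the neurotransmitter transporter family, had 6.24, 6.04 and 6.74 CPM in the GFP Low pools and 5.04, 4.50 and 4.60 in the RFP pools, without overlap, at 0.44 (SE 0.23). The edgeR adjusted p of all 4 was 0.9999.

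GFP High against GFP Low gave the same count of calls. Of 181 members tested among 14785 genes, edgeR called 0 beside 0% of all genes, DESeq2 0 beside 0.0192% and limma-voom 0 beside 0%. At an unadjusted p under 0.05 there were 10 members, 4 higher and 6 lower in GFP High (5.52%), against 3.77%. Libraries did not overlap for 26 members, 13 in each direction (14.4%), against 11.5%. The higher members of both counts include Slc16a9 (mean 1.52 CPM, log2 fold change 1.98) and Slc5a5 (1.21 CPM, 2.47). Both lie near 1 CPM and can have passed that limit through their GFP High values. They are thus no support for a difference. The median log2 fold change was -0.0074 over members and -0.0048 over all genes. Left-out libraries moved the members' median between -0.032 (without GFP High 3) and 0.022 (without GFP High 2), and it was 0.014 without GFP Low 1 and without GFP Low 2. In the authors' deposited table, 0 members had an adjusted p under 0.05 and 14 had a p under 0.05. Here too the share over all genes was not computed, so the 14 cannot be read as many or few.
The smallest p was that of Slc25a5, whose libraries are given above: the difference was 0.54 on the log2 scale (SE 0.16, edgeR unadjusted p 0.0072 and adjusted p 0.9975), and 0.33 without GFP High library 2. Slc25a23, a calcium-regulated ATP-magnesium carrier of mitochondria, had 7.23, 8.22 and 11.2 CPM in the GFP High pools and 14.2, 12.7 and 17.6 in the GFP Low pools, without overlap, at -0.74 (SE 0.28). Slc52a2, a riboflavin carrier, had 22.4, 34.3 and 21.9 CPM with high GFP and 16.5, 15.5 and 19.4 with low GFP, at 0.62 (SE 0.24), or 0.36 without GFP High library 2. The partner gene Slc4a1ap had 337, 297 and 328 CPM with high GFP and 393, 364 and 359 with low GFP, at -0.21 (SE 0.08). Neither pair overlapped, and the edgeR adjusted p of all 3 was 0.9975.

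**Figure D4:**
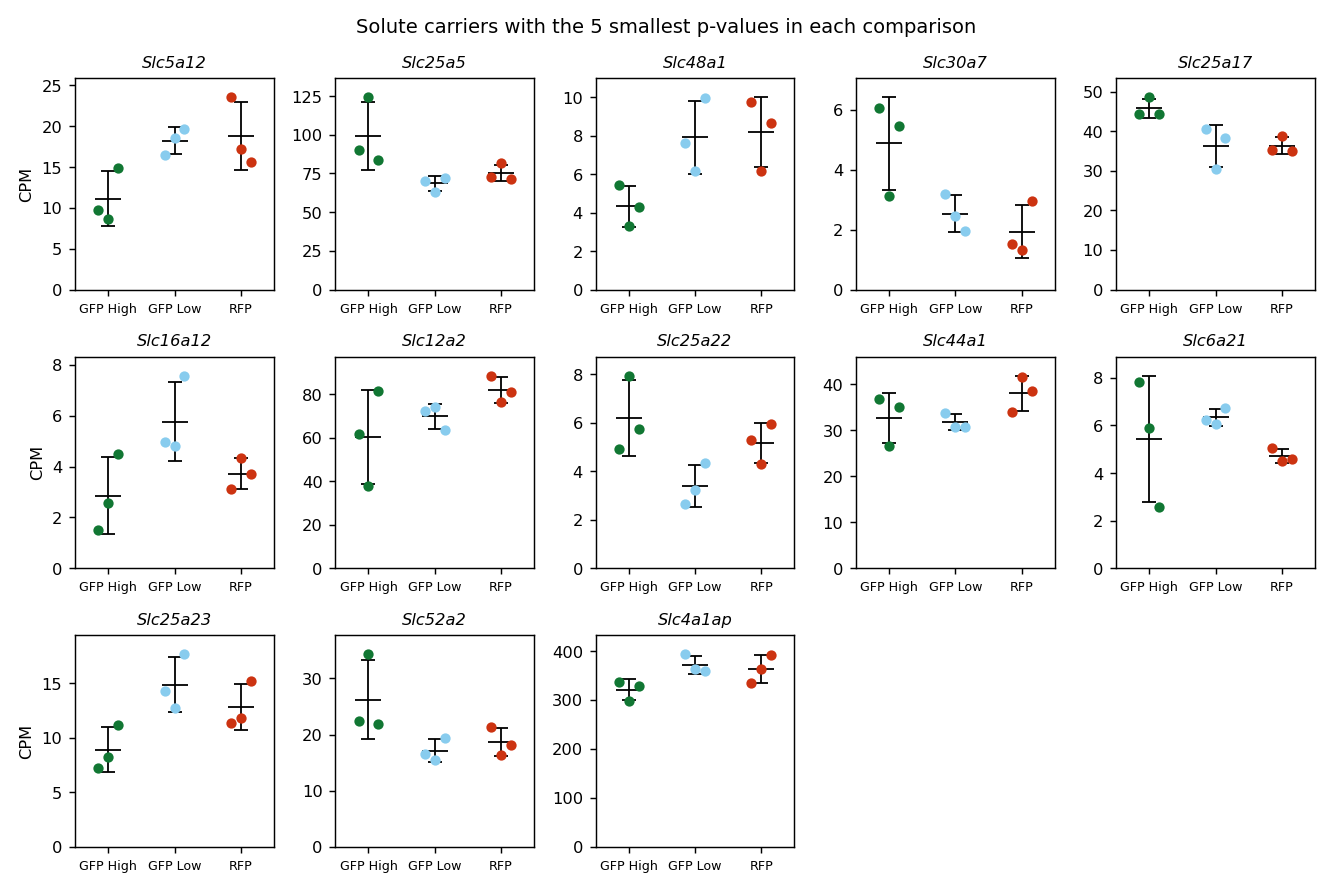
CPM per library (points) with the mean and SD of 3 libraries (lines) for the 13 members that hold the 5 smallest p-values in any comparison. Slc25a5 is highest in GFP High library 2 (124 CPM), and no gene shown passed the adjusted threshold.

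By class, signs were mixed and no class had a member called. In GFP High against RFP, positive fold changes were found for 8 of 15 zinc carriers (median log2 fold change 0.044), 17 of 33 mitochondrial (0.034) and 16 of 28 amino acid carriers (0.058). They were found for 8 of 27 ion and pH carriers (-0.085) and 10 of 28 in the organic ion, vitamin and lipid class (-0.18). Over all genes tested 49.3% were positive, and over members 87 of 182. In GFP Low against RFP, 9 of 15 zinc, 9 of 33 mitochondrial and 9 of 28 organic ion carriers were positive (medians 0.061, -0.051 and -0.063). The share was 48.9% over all genes and 79 of 182 over members. Between the 2 GFP groups these 3 classes had 9 of 15, 20 of 33 and 10 of 28 (0.025, 0.065 and -0.094). There 49.4% of all genes and 89 of 181 members were positive. The GFP groups were compared with the same 3 RFP libraries, and each GFP group enters 2 comparisons, so the comparisons are not independent.
Fold changes were smaller among members of higher level. Of the 95 members of 10 CPM or more, a log2 fold change of 0.5 or more in size was found for 7 between GFP High and RFP, for 0 between GFP Low and RFP and for 8 between the 2 GFP groups. None of the 95 reached 1 in any of the 3. Their median SE was 0.21, 0.14 and 0.20. The whole range over members was -3.03 to 2.01, -0.91 to 1.14 and -2.12 to 2.47.

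**Figure D5:**
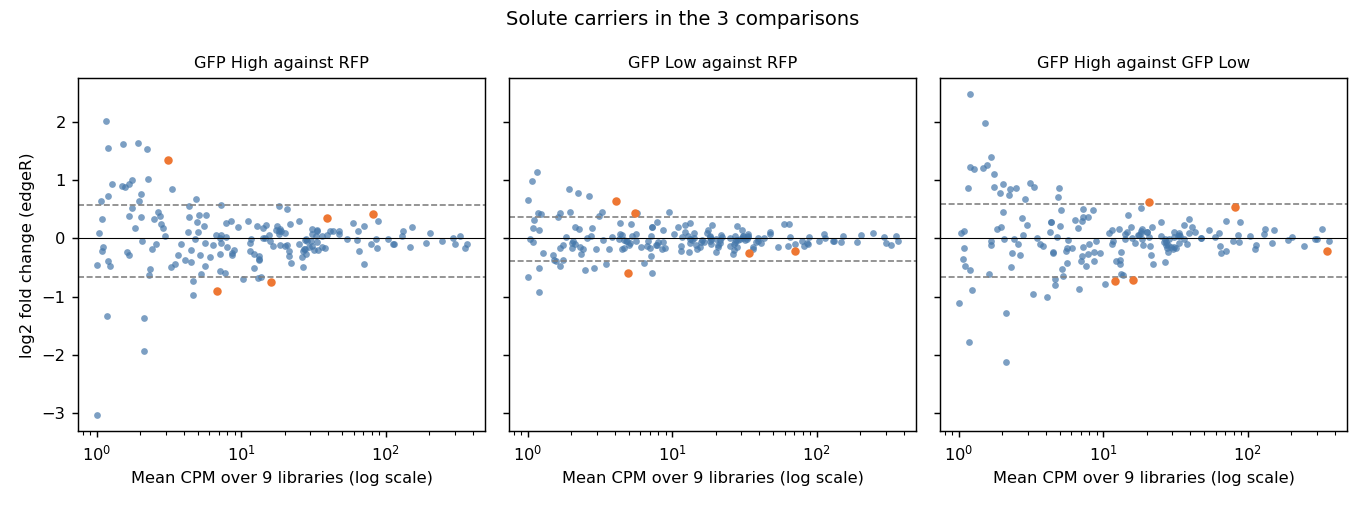
edgeR log2 fold change of each member against its mean CPM over 9 libraries (log scale), 1 panel per comparison; orange points are the 5 smallest p-values and dashed lines the 10th and 90th percentiles of all genes tested. Wide values lie at low CPM, and the GFP Low against RFP panel is narrowest, from -0.91 to 1.14.

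Transport genes outside the Slc names did not pass either. Of 43 listed pumps, channels, metal-handling and junction genes, 42 were matched and 40 tested. In each comparison edgeR called 0 of them, beside 0.0135%, 0.0197% and 0% of all genes. Positive fold changes were found for 21, 14 and 22, against 49.3%, 48.9% and 49.4% of all genes. At an unadjusted edgeR p under 0.05 there were 0, 0 and 2, against 4.09%, 2.62% and 3.77% of all genes. The 2 were the gap junction gene Gja4 (0.35, SE 0.10, above GFP Low in the GFP High group) and the endoplasmic reticulum pump Atp13a1 (-0.39, SE 0.16). They were named after their values were seen. Mtf1, the metal-sensing factor whose motif is marked in the promoters above, was at 196 to 238 CPM in all 9 libraries, and Mt1, a metallothionein, at 0 to 4.11 CPM.

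Some counts can be shared with other genes. Exons of Slc39a7 overlap those of Gm20427 on the same strand over 80.7% of their bases. Besides Slc6a9, opposite-strand overlap of 20% or more was found for Slc25a35, Slc6a20b, Slc1a1, Slc33a1, Slc9a4 and Slc16a9. In all, 10 members shared a stretch of 300 bases or more at 95% identity or more with another gene. For only 2 of them was such a gene counted at 1 CPM or more. Slc7a11 shares 373 bases with Tuba1c (13.96 CPM), and Slc25a20 shares 366 bases with Tmem72 (167 CPM). The pseudogene matched by Slc35a4, Gm5866, had 0.024 CPM. Levels of these genes are uncertain to that extent.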

How the data were processed

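Poly-A RNA-seq libraries of 9 pools of MII oocytes were used, 3 each of GFP High, GFP Low and RFP. The authors deposited 3 tables, 1 per pair of groups, each with raw read counts, FPKM and a normalised signal per library, and the authors' own log2 fold changes with a raw and an adjusted p-value. The submitters' processing notes name fastp, HISAT2 2.0.5, featureCounts 1.5.0-p3, DESeq2 1.20.0 and mm10, without their roles. The strand setting of the counting is not given in the sources used here.

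The tables were joined by gene identifier into 30153 genes, with counts set to 0 for 178 genes that a table lacked. CPM is the count over the library total. FPKM values served only to set levels of genes side by side and for family sums and their ratio. The deposited signal was not used. The deposited fold changes and p-values are quoted only where the authors' table is named. Each pair of groups was tested on the counts of its 6 libraries with edgeR 4.0.16 under R 4.3.3 (filterByExpr, TMM, quasi-likelihood test at defaults, no covariate), with Benjamini-Hochberg adjustment over all genes tested and a threshold of 0.05. Standard errors were derived from the F statistic. DESeq2 1.42.0 and limma-voom (limma 3.58.1) were run beside it, and the edgeR step was tested on simulated data. Libraries are called overlapping or not on CPM scaled by TMM within the 6 libraries of a comparison, unless another scale is named. Family sums and their ratio are on FPKM without this scaling. Replicates differed by more than sampling noise (chi-square per degree of freedom 13.8 to 57.6), so each was kept.

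The members, the class and gene lists, and the rules were chosen with earlier results of these data known. Genes named with values are the 3 highest by FPKM in each class, the 5 smallest p-values per comparison, a list of textbook egg carriers, the 5 genes on either side of 1 CPM, and the 3 most variable members of 10 CPM or more per group; some of these are not reported here. Of the other transport genes and the markers, Mt2 and 3 markers of stroma and blood were not matched. Coordinates are from the deposited tables and equal GENCODE M21 (GRCm38) for 173 of 182 members. Promoter sequences are from RefSeq.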

Additional observations from a re-analysis of the deposited data

How the results depend on the processing

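The count of solute carriers called was 0 in all 3 comparisons under each alternative run for it: DESeq2, limma-voom, DESeq2 size factors, no filter, a mean of at least 50 counts, all 9 libraries in 1 fit, each library left out, and the replicate block. A fit without the 3 libraries with most cumulus RNA (GFP High 1, GFP Low 1 and RFP 2), added after seeing the data, also called 0. Correlations of same-numbered libraries, taken on deviations from the group means, ran from -0.209 to 0.209. Libraries with different numbers were not correlated, so whether the numbers pair the samples was not tested. With the replicate block the median log2 fold change of the members in GFP High against GFP Low was -0.058, against -0.0074 without it. In GFP High against RFP it was -0.056 with the block and -0.016 without. The block fits called 0. The share of counts in members was 0.639% for GFP High, 0.640% for GFP Low and 0.650% for RFP when only protein-coding counts were the total, and 0.559%, 0.562% and 0.573% with members of 10 CPM or more, which follows from the smaller total and the fewer genes. A limit of 0.5 CPM gave 216 members, 2 CPM gave 156 and 1 FPKM gave 124. The members with the 5 smallest p-values in each comparison were refitted under 14 alternatives each, and all 210 refits kept their sign. Since these members were chosen for small p-values in the same libraries, the kept signs are no independent support. The other named members were not refitted in this way. Adjusted p-values of Slc25a5 in GFP High against GFP Low ranged from 0.156 without a filter to 1. The median variation between GFP High libraries was 68.2% for members of 1 to 5 CPM, so 0 calls there do not exclude differences, small or large. The ends of the range in GFP High against GFP Low were Slc5a5 (log2 fold change 2.47, SE 1.04) and Slc2a9 (-2.12, SE 0.97). Both lay at this level and had an edgeR adjusted p of 0.9975.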
